A study of Mus musculus with 36 samples.

Results

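CpG cytosines at the promoters of protein-coding genes were examined in mouse knee cartilage at 4 and 12 weeks after surgical induction of osteoarthritis. A promoter was taken as the 1 kb on either side of the transcription start of a RefSeq protein-coding gene on an autosome (GRCm38), and a cytosine was kept when at least 10 reads covered it in all 6 oxidative bisulfite (oxBS) libraries of a week. At 4 weeks 617092 of the 1424652 covered autosomal CpG cytosines (43.3%) met this rule, in the windows of 13759 of 20558 annotated genes. At 12 weeks 520708 of 1252526 (41.6%) did, in the windows of 13644 genes, and 506837 cytosines were kept in both weeks. Promoter tests, counts and classes used only promoters with at least 5 kept cytosines, which left 12407 promoters at 4 weeks and 12252 at 12 weeks, with a median of 45 and 39 cytosines.

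The samples were articular cartilage of male C57BL/6J mice that were 12 weeks old at surgery. The right knee had the medial meniscus destabilised (DMM), and the left knee of the same animals was not operated on and served as the control limb. Each library pooled cartilage of 3 knees, and each limb and week had 3 libraries for methylation and 3 for RNA, the RNA coming from other mice. The control limb shares the whole animal with the operated limb, so it is not a limb of an unoperated mouse, and nothing in the labels says which control and DMM libraries came from the same mice. Each methylation library was split into an oxidised portion, in which only 5-methylcytosine (5mC) is read as methylated, and a mock-oxidised bisulfite (BS) portion, in which 5mC and 5-hydroxymethylcytosine (5hmC) are both read as methylated. 5hmC is the BS percentage minus the oxBS percentage of a cytosine, and it can fall below 0 by counting error.

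CpG methylation of a promoter is a mark laid down by DNA methyltransferases and copied when cells divide. Most mammalian promoters lie in CpG islands, stretches rich in CpG that stay unmethylated in nearly all cells, whereas promoters with few CpGs are often methylated where the gene is silent. TET enzymes oxidise 5mC to 5hmC, which can be an intermediate of demethylation or a stable mark. In cartilage, DNA methylation has been studied at promoters of matrix-degrading enzymes and of cytokine genes.

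Median coverage over promoter cytosines ranged from 23 to 148 reads in the oxBS libraries and from 20 to 125 in the BS libraries, and the RNA libraries held 27706547 to 62737656 counts. The share of unconverted cytosine on the mitochondrial genome, a measure of incomplete conversion, was 0.530 to 0.742% at 4 weeks and 0.284 to 0.364% at 12 weeks. Libraries were combined in pools of 6 before oxidation, and which libraries shared a pool is not given in the sources used here. All 23 chondrocyte markers had RNA, with summed levels of 20769 to 76960 CPM. Leukocyte and bone marrow markers summed to 6335 to 27592 CPM and skeletal muscle markers to 88.4 to 19967 CPM, whereas liver markers (5.29 to 43.2 CPM) and neuron markers (1.48 to 5.06 CPM) were near 0. The BS file of DMM replicate 1 at 12 weeks bears another replicate number in its name than in its label. Its median coverage at promoters was 29 reads against 100 in its oxBS partner. Most 12-week 5hmC comparisons of the limbs are therefore also given without it or library by library. Control replicate 2 at 12 weeks had 21 reads in BS against 34 in oxBS. The labels of both libraries lack the term DNA that the other 12-week methylation labels carry.

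Of the 13 genes with several lower and the 3 with several higher called cytosines at 12 weeks, stretches of 6 are given first, chosen after their values were seen, to show how close together called CpGs lie. They come from the GRCm38 assembly and run in the direction of the gene, with the CpGs whose cytosine was called different between the limbs in capitals (how they were called is given with the single cytosines). The first is the start of the transcript itself, the next 4 lie upstream of their gene and the last lies in an intron. Other CpGs of each stretch, measured or not, are in lower case.
Zfp119b, chr17:55956204-55956233, minus strand: CGctgtccCGctgtgCGcaggCGcaCGcct
Slit1, chr19:41747445-41747557, minus strand: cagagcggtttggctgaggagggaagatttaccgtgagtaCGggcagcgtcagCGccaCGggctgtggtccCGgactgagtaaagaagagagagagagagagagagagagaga
Trap1, chr16:4078440-4078546, minus strand: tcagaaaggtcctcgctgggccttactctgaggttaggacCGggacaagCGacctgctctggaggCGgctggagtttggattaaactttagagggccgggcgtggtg
Cep295nl, chr11:118342966-118343055, minus strand: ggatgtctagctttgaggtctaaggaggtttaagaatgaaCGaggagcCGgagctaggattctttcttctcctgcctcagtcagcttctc
Tspoap1, chr11:87757174-87757276, plus strand: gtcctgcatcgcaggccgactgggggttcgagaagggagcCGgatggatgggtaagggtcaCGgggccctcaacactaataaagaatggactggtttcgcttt
Itgb2, chr10:77530709-77530810, plus strand: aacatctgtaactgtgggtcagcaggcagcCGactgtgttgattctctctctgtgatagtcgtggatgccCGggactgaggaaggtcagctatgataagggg

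The Zfp119b stretch packs 5 CpGs into its 30 bases, and all 5 were called. In the Slit1, Trap1 and Tspoap1 stretches 4 of 7, 3 of 6 and 2 of 6 CpGs were called. Only 6 CpGs were measured in the Slit1 stretch and 4 in the Trap1 stretch, so the rest could not be called. To show how sparse the measured CpGs are at some promoters, 3 whole promoters follow, from 250 bases before the start, with the CpGs measured at 12 weeks in capitals. Mgp encodes matrix Gla protein, an inhibitor of cartilage calcification, Gsn encodes the actin-severing protein gelsolin, and Tmem150b encodes a membrane protein.
Mgp, chr6:136875794-136876073, minus strand: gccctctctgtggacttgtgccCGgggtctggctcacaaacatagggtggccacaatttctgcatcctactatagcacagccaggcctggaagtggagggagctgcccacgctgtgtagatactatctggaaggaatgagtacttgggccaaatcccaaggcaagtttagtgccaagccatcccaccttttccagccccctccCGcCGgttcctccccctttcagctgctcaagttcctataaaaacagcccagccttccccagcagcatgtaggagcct
Gsn, chr2:35256109-35256388, plus strand: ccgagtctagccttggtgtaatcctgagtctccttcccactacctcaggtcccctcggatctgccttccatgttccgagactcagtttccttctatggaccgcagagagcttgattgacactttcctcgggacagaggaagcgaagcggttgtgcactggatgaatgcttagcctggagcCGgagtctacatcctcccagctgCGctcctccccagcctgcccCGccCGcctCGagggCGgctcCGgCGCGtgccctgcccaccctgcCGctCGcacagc
Tmem150b, chr7:4725222-4725501, minus strand: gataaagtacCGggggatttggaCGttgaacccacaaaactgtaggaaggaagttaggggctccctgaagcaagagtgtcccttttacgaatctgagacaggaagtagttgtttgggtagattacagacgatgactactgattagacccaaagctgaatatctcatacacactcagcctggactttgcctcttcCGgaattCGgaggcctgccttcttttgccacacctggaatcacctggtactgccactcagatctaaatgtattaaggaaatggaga

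In the Mgp promoter 3 of 4 CpGs of this stretch were measured, in Gsn 11 of 18 and in Tmem150b 4 of 6. Their mean 5mC in control cartilage at 12 weeks was 58.6% ± 2.53 (SD, n = 3) for Mgp, 2.31% ± 0.0969 for Gsn and 36.6% ± 8.73 for Tmem150b, each over the whole window. Gsn, with the most CpGs, was the least methylated of the 3.

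The measured promoter cytosines carried little methylation. In the 3 control libraries at 4 weeks their mean 5mC was 2.69, 2.42 and 2.54%, and in the 3 DMM libraries it was 2.48, 2.37 and 2.41%. The limbs overlapped, and the difference of −0.129 points (2.55% ± 0.13 against 2.42% ± 0.06) was within the spread between libraries (exact permutation test, two-sided, p = 0.2, the smallest p possible with 3 against 3 being 0.1). At 12 weeks the control libraries had 2.56, 2.52 and 2.61% and the DMM libraries 2.33, 2.46 and 2.39%. Here every DMM library lay below every control library, by 0.172 points on average (2.57% ± 0.05 against 2.39% ± 0.06, exact p = 0.1), a relative fall of 6.71%. Over all other autosomal cytosines 5mC was 49.4% ± 0.5 and 48.0% ± 0.6 at 12 weeks (exact p = 0.1) and 46.5% ± 1.3 and 45.3% ± 0.7 at 4 weeks (exact p = 0.3). Within each library promoters were far below the rest, by 43.4 points at 4 weeks and 46.2 points at 12 weeks (exact sign permutation over 6 libraries, p = 0.03125 each, the smallest possible).

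5hmC at promoters was lower still. The control libraries at 4 weeks had 0.165, 0.268 and 0.221% and the DMM libraries 0.240, 0.285 and 0.259%, so the limbs overlapped (difference 0.0431 points, exact p = 0.3). At 12 weeks the control libraries had 0.173, 0.194 and 0.164% and the DMM libraries 0.290, 0.207 and 0.223%, without overlap (0.177% ± 0.015 against 0.240% ± 0.044, difference 0.0627 points, exact p = 0.1). Without DMM replicate 1 the 12-week difference was 0.0377 points (0.215% ± 0.011 in the remaining 2 libraries, exact p = 0.2). The other cytosines had 2.50% and 3.33% 5hmC at 12 weeks (3.09% in DMM without DMM replicate 1) and 3.56% and 4.27% at 4 weeks. The total read as methylated in the BS libraries, which does not use the oxidised reads, was also lower at 12 weeks, at 2.64% ± 0.03 in DMM against 2.75% ± 0.03 in control (exact p = 0.1), and at 4 weeks it was 2.8% ± 0.04 against 2.90% ± 0.09 (exact p = 0.2). The 12-week DMM libraries had 2.63, 2.67 and 2.62% and the control libraries 2.74, 2.73 and 2.79%, so the limbs were apart with or without DMM replicate 1. 5hmC made up 6.44% ± 0.63 of that total in control and 9.09% ± 1.72 in DMM cartilage at 12 weeks (exact p = 0.1), with 11.0% in DMM replicate 1 and 7.75 and 8.50% in the other DMM libraries. The difference between the limbs was not itself different between the weeks by a permutation of the limb labels within weeks, neither for 5mC (exact p = 0.84) nor for 5hmC (exact p = 0.705).

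**Figure D1:**
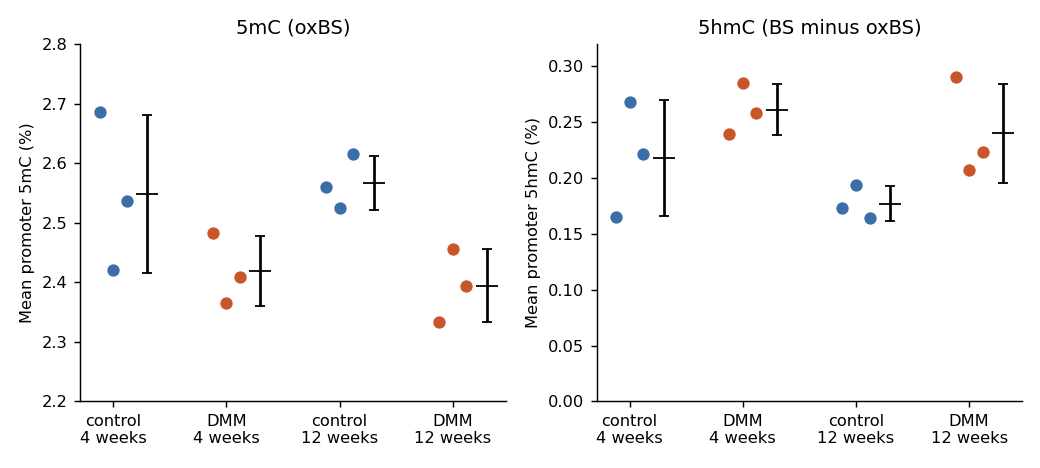
Mean 5mC (left) and 5hmC (right) in percent over promoter CpG cytosines, 1 point per library, by limb and week, with the mean and SD of the 3 libraries beside them in black. At 12 weeks the 3 DMM libraries lie below the control libraries for 5mC (2.33 to 2.46% against 2.52 to 2.61%) and above them for 5hmC, and at 4 weeks the limbs overlap for both, with the left vertical axis starting above 0.

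Between the weeks, over the cytosines kept in both, promoter 5mC was lower at 12 than at 4 weeks in both limbs, by 0.182 points in control (2.67% ± 0.14 to 2.49% ± 0.04) and by 0.211 points in DMM (2.53% ± 0.06 to 2.32% ± 0.06), without overlap (exact p = 0.1 each). The other cytosines were not lower (47.5% and 48.8% in control, exact p = 0.3). The part of pooling in this difference was not tested, and the unconverted share on the mitochondrial genome given above was lower at 12 weeks as well. Promoter 5hmC at 4 and 12 weeks was 0.218% ± 0.052 and 0.172% ± 0.014 in control (exact p = 0.3) and 0.259% ± 0.023 and 0.233% ± 0.044 in DMM (exact p = 0.4).

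Both marks depended on the distance from the transcription start. In the 100 bases before the start, mean 5mC at 12 weeks was 1.58 to 1.62% in the control libraries and 1.5 to 1.56% in the DMM libraries, and in the window's first 100 bases upstream, 900 to 1000 bases away, it was 14.9 to 15.2% and 14.4 to 14.8%. At the downstream edge it was 4.80 to 5% in control and 4.35 to 4.63% in DMM. Upstream flanks were thus more methylated than downstream flanks in every library. 5hmC ran parallel, with 0.0597 to 0.0887% just before the start and 1.26 to 1.42% at the upstream edge in control against 1.74 to 1.97% in DMM. At 12 weeks 47.5% of promoter cytosines lay within 250 bases of a start.

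**Figure D2:**
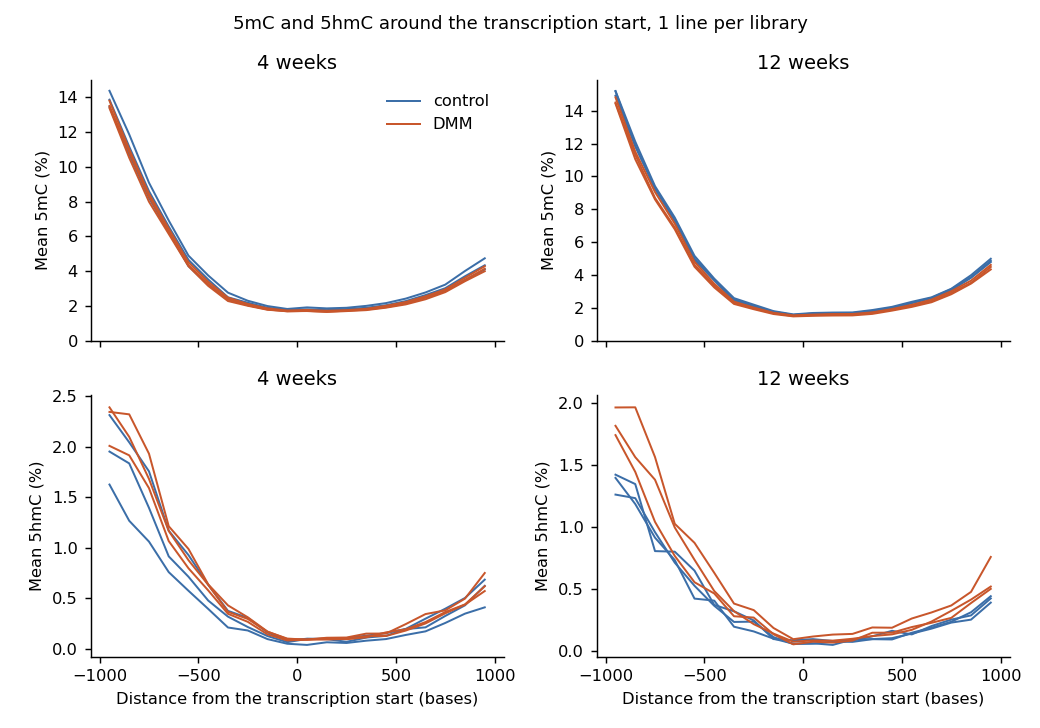
Mean 5mC (top) and 5hmC (bottom) in percent against the distance from the transcription start in bins of 100 bases, with 1 line per library in the colour of its limb, at 4 weeks (left) and 12 weeks (right). Both marks are lowest close to the start and rise to 14.4 to 15.2% 5mC at the upstream edge at 12 weeks, where the 3 DMM lines lie above the control lines for 5hmC.

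The CpG content of the window separated the promoters. Of the annotated genes 6910 had an observed to expected CpG ratio of at least 0.6 and 13648 a lower one. The measured promoters therefore lean to the CpG-rich class, and values over all of them do not hold for all annotated promoters. Among the 6739 promoters with an observed to expected CpG ratio of at least 0.6, a usual cutoff for CpG islands, mean 5mC over the 6 libraries at 12 weeks was 1.23%, and 43 (0.638%) had 30% or more. Among the 5513 promoters under 0.6 the mean was 10.6%, and 675 (12.2%) had 30% or more. Mean 5hmC was 0.104% in the first class and 0.766% in the second, or 0.0953 and 0.714% without DMM replicate 1. The same classes at 4 weeks had 1.45% and 10.7% 5mC.

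Gene groups with a known promoter state were looked at next. Of the germline genes, whose CpG-rich promoters are silenced by methylation outside the germ line, 17 of the 18 measured at 12 weeks had 30% or more, with a median of 86.6%. Ddx4, the germ cell RNA helicase Vasa, had 79.8% ± 1.26 and Sycp1, of the meiotic synaptonemal complex, 86.8% ± 0.779, while Zpbp2 (0.375%) was the exception. Of the 22 imprinted genes, in which 1 parental copy is methylated, 14 had 30% or more, with a median of 35.6%, among them Peg3 at 46.0% ± 3.65, Gnas at 41.8% ± 2.51 and Mest at 67.5% ± 2.31. None of the 18 housekeeping promoters reached 30% (median 0.341%), and the highest was Actb, the gene of β-actin, at 12.9% ± 0.622. The share over all measured promoters was 6.06%.

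All 15 chondrocyte promoters measured at 12 weeks were under 30% in control cartilage, as were nearly all promoters, and their median of 2.11% lay above the 0.498% of all promoters. Col2a1, the gene of the main cartilage collagen, had 1.33% ± 0.265. Their highest value was 17.3% ± 1.48, at Col11a2, a minor fibrillar collagen of cartilage. The genes of the methylation machinery itself had a median of 0.450%, with Tet2 at 0.465% ± 0.0634. The 10 matrix-degrading and inflammatory genes had a median of 2.13%, with Lif, a cytokine of the IL-6 family, as the most methylated at 63.0% ± 3.24.

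Single cytosines were then compared between the limbs. The test was a likelihood ratio on the reads pooled by limb, with the study's thresholds on size and q, run over all covered autosomal cytosines, and a differentially methylated cytosine (DMC) had a difference of at least 25 points and a Benjamini-Hochberg q under 0.05. It sets the reads of 3 libraries of a limb against those of the other limb and takes no account of the spread between libraries. At 4 weeks 0 promoter cytosines were DMCs for 5mC, where 8 cytosines (0.000562%, with 0.000211% higher and 0.000351% lower in DMM) were over all tested cytosines, although 44645 promoter cytosines (7.23%) had an unadjusted p under 0.05 by the same test, against 8.04% of all cytosines. Control replicate 2 decided this count, since without it 96 promoter DMCs were called (22 higher and 74 lower in DMM).

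At 12 weeks 104 promoter cytosines were DMCs for 5mC, against a background of 0.229% over all tested cytosines, 0.202% lower and 0.0274% higher in DMM. They were 0.0200% of the promoter cytosines, so the share at promoters was below that background. All 104 had a mean level between 20 and 80%, a class that holds 2.27% of promoter cytosines but 34% of the others, and within it 0.881% of promoter and 1.11% of other cytosines were called. In 85 cytosines of 65 genes 5mC was lower in DMM, with a median of 53.2% in control and 24% in DMM, and in 19 cytosines of 16 genes it was higher, at 31.3 and 62.1%. Of the lower ones 36 lay upstream, 28 in untranslated exons, 11 in introns and 10 in coding exons. The limbs did not overlap in 77 of the 85 and in 18 of the 19. Choosing cytosines by a pooled difference of at least 25 points favours this. The share without overlap over all tested cytosines was not computed. With the spread between libraries in the test, 0 of the 104 were called. With 3 libraries per limb and 1252526 cytosines that test could hardly call any, so its 0 says little about the spread. Leaving out single libraries gave 52 without DMM replicate 1, 198 without control replicate 2 and 164 without DMM replicate 2.

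The lower DMCs were spread over 65 genes, of which 13 held 2 or more. Zfp119b, a zinc finger gene, had 6, all within 33 bases after its start in the stretch shown above and its edge. At its first CpG the control libraries had 54.8, 43.2 and 50% and the DMM libraries 17.3, 21.9 and 16.9%, so no DMM library came near a control library. Over the 13 cytosines of the whole Zfp119b promoter 5mC was 44.9% ± 3.97 in control and 26.6% ± 2.28 in DMM. The 6 cytosines sit on the same short fragments and are not independent of each other.

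Slit1, a secreted axon guidance ligand, had 4 lower DMCs between positions −210 and −241 from its start. In the outermost of them the control libraries had 59.5, 50 and 58.3% and the DMM libraries 33.9, 26.7 and 29.6%. Trap1, a mitochondrial chaperone of the Hsp90 family, had 3 between positions −641 and −666, and at the middle of them control replicate 2 (48.1%) fell below DMM replicate 3 (50%), so the limbs overlapped there. The predicted gene Gm38457 had 4 and Slc6a16, of a transporter family, had 3, in untranslated exons, with whole-promoter means of 42.2% ± 1.29 against 23.8% ± 3.45 and 44.2% ± 2.30 against 33.5% ± 2.34. Cep295nl had 2, at positions −464 and −472, and the first held the largest fall of all promoter DMCs, with 56.3, 63.6 and 68.8% in control against 20, 23.1 and 12.5% in DMM.

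Of the genes with higher DMCs, Itgb2, the β2 integrin chain of leukocytes, had 2 in its intron. At the nearer of them the control libraries had 25, 30 and 38.5% and the DMM libraries 74.2, 52.9 and 58.6%. Tspoap1, whose product binds the translocator protein TSPO, had 2 at the upstream edge of its window, and at the outer of them the control libraries had 41.0, 47.4 and 32.1% and the DMM libraries 78.5, 62.2 and 65.5%. In both genes all DMM libraries were above all control libraries, which choosing cytosines by the size of their difference favours. Single higher DMCs chosen here after their values were seen included Cd37 (26.9 to 62.0%) and Cd48 (34.7 to 71.3%), both surface proteins of leukocytes, and Tnfsf14 (21.1 to 51.2%), the cytokine LIGHT, as pooled percentages in control and DMM. Single lower ones, also chosen after their values were seen, included Sod3, the extracellular superoxide dismutase (47.2 to 13%), Smad5, a transducer of BMP signals (47.7 to 17.1%), Nsd1, a histone H3 methyltransferase (53.4 to 23.6%), and Ctnnb1, the gene of β-catenin (46.3 to 19.5%).

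Among the lower DMCs 1 stood out for its spread. At a cytosine at position −119 of Adamts14, a procollagen N-propeptidase, the control libraries had 94.1, 0 and 92.9% and the DMM libraries 2.56, 71.4 and 100%. Each limb held libraries at both extremes there, and the value was chosen after it was seen.

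For 5hmC 4 promoter cytosines were called at 4 weeks (background 0.00817%) and 22 at 12 weeks (background 0.038%), of which 3 and 20 were higher in DMM. The split depended on the libraries, with 33 higher and 24 lower at 12 weeks without control replicate 1, 25 and 10 without control replicate 3, and, at 4 weeks, 5 and 6 without control replicate 1 and 22 and 20 without control replicate 2. Over all tested cytosines 0.00479% were higher and 0.00338% lower at 4 weeks, and 0.0321% and 0.00589% at 12 weeks. In the 12-week group they lay on 22 different genes, and 14 of the 20 higher ones were upstream, none of them within 250 bases of the start. In Sox5, a transcription factor of chondrocytes, 5hmC at a cytosine at position −561 was 0, 1.75 and 1.31% in control and 23.1, 27.0 and 33.7% in DMM. In Ndrg1 it was 0, 16.3 and 0% in control and 44.2, 36.0 and 27.5% in DMM, at position −740. The limbs were apart at both sites, which their choice from the 22 called ones favours. Ndrg1 was chosen after its values were seen. These calls come from a test in which values below 0 are set to 0. A test that kept them called 0 promoter cytosines in either week. It also took in the counting error of the oxBS reads, which the main test leaves out, so the tests differ in more than the negative values. A test with the spread between libraries called 0 as well, but with 3 libraries per limb it could hardly call any. Without DMM replicate 1 the 12-week count was 40, and without single libraries the counts ranged from 7 to 42 at 4 weeks and from 33 to 78 at 12 weeks.

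Whole promoters, which average over their cytosines, were compared with the library as the unit. By limma 0 promoters passed an adjusted p of 0.05 for either mark in either week, but for 5mC at 12 weeks 31 did without the trended prior (6 higher and 25 lower in DMM) and 6, all lower, among promoters with at least 10 cytosines. At 12 weeks 1409 of 12252 promoters (11.5%) had an unadjusted p under 0.05 for 5mC, 1120 of them lower (9.14%) and 289 higher (2.36%) in DMM, and at 4 weeks 491 of 12407 (3.96%) did. For 5hmC the shares were 4.69% at 12 weeks and 4.09% at 4 weeks, and its limbs did not overlap at 9.37% of promoters at 12 weeks (5.66% higher and 3.71% lower, or 10.7 and 8.48% without DMM replicate 1, which leaves 2 DMM libraries) and at 9.72% at 4 weeks (5.5% higher and 4.22% lower). For 5mC the limbs did not overlap at 17% of promoters at 12 weeks, with 12.7% lower and 4.29% higher in DMM, and at 9.52% at 4 weeks, with 6.36% lower and 3.16% higher. Most of these differences were small, and only 245 promoters at 12 weeks (199 lower and 46 higher) and 30 at 4 weeks (25 lower and 5 higher) differed by 5 points or more without overlap.

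The largest falls at 12 weeks were in genes with few measured cytosines. Cd59b, a regulator of complement, had 65.6, 83.3 and 71.2% in control and 48.9, 44.6 and 55.4% in DMM over 5 cytosines, a difference of −23.7 points (limma adjusted p = 0.142). Cep295nl followed at −22.7 points (46.2% ± 3.85 against 23.5% ± 1.85, adjusted p = 0.0834). In Cav3, the muscle caveolin, the control libraries had 37.7, 45.6 and 50% and the DMM libraries 16.4, 24.7 and 28.0% (−21.4 points, adjusted p = 0.129). Only promoters without overlap were ranked, so that no DMM library reached the lowest control library follows from how these 3 genes were chosen.

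The largest rises were in Tmem150b, Ripor2 and Osgin1. Tmem150b had 44.9, 37.4 and 27.5% in control and 57.7, 51.6 and 61.4% in DMM, a difference of 20.3 points (limma adjusted p = 0.185). Ripor2, an inhibitor of RhoA expressed in blood cells, had 43.8, 44.0 and 36.7% against 60.1, 62.7 and 58.7% (18.9 points, limma adjusted p = 0.107). Osgin1, a gene induced by oxidative stress, had 33.5, 33.0 and 33.6% against 52.0, 45.7 and 54.6% (17.4 points, limma adjusted p = 0.116). The 3 Osgin1 control libraries were within 1 point of each other.

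At 4 weeks the spread between control libraries was wide at intermediate promoters. Zfp119b had 44.3, 22.9 and 37.8% in control and 25.4, 18.9 and 25.7% in DMM, and Tspoap1 45.4, 75.9 and 64.1% against 63.0, 81.0 and 72.2%. In both genes control replicate 2 lay among the DMM libraries. The largest differences without overlap were in Il12a, Rnf14 and Ermap on the higher side and in Zfp469, Sbk1 and Catsperg1 on the lower side. Rnf14, a ubiquitin ligase, differed by 7.19 points and Ermap, an erythroid membrane protein, by 6.60 points, while Sbk1, a protein kinase, differed by −12 points. Without control replicate 1 the differences were 4.15 points for Ermap and −6.27 for Catsperg1, and without DMM replicate 2 that of Sbk1 was −7.14. None of them passed by limma (adjusted p = 0.850 each).

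**Figure D3:**
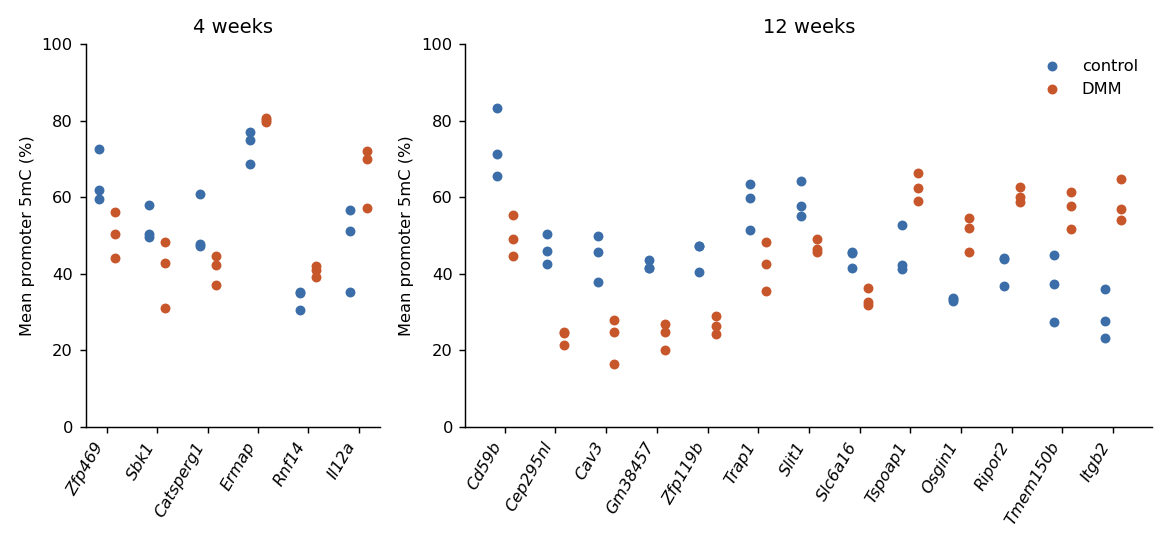
Mean promoter 5mC in percent in each library for the promoters named for their difference at 4 weeks (left) and 12 weeks (right), ordered by the difference, with control libraries to the left of DMM libraries for each gene. In every gene shown the 3 points of a limb lie apart from those of the other limb. This was a condition for the genes chosen by their promoter difference. Itgb2 rests on 3 cytosines and the other genes on 5 or more.

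Of the 12166 promoters measured in both weeks, 5 differed by at least 5 points without overlap and in the same direction in each, out of 27 such promoters at 4 weeks and 233 at 12 weeks, and 0 did so in opposite directions. Il12a, which encodes the p35 subunit of interleukin 12, was the higher one. Its control libraries had 35.2, 56.6 and 51.2% at 4 weeks and 39.0, 39.2 and 39.6% at 12 weeks, and its DMM libraries 57.1, 72.0 and 69.9% and 60.3, 56.7 and 51.9%. The lower ones were Zfp469 (−14.4 and −12.5 points), Catsperg1, a subunit of the sperm calcium channel (−10.7 and −10.5), Abra, an actin-binding regulator of striated muscle (−9.14 and −16.5), and the germline gene Ddx4 (−7.40 and −5.18). With no minimum size 1159 of the 12166 promoters were apart at 4 weeks and 2061 at 12 weeks. Of these 160 were apart in both weeks, of which 117 kept their direction and 43 did not. Over all promoters 6.36% were lower and 3.16% higher without overlap at 4 weeks, and 12.7 and 4.29% at 12 weeks. Such shares alone make the same direction the more frequent one. An excess over unrelated weeks was not tested.

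The sets of the later week were looked up in the libraries of the earlier week, which had no part in choosing them. Of the 43 higher promoters measured at 4 weeks, 41 had a difference above 0 there, and of the 190 lower ones 181 had a difference below 0. Among all 1091 promoters with 10 to 90% 5mC, 29.5% had a difference above 0 and 70.5% one below 0 at 4 weeks. The higher set averaged 39.1, 51.6 and 44.7% in the control libraries at 4 weeks and 47.5, 55.5 and 51.9% in the DMM libraries. The lower set averaged 42.9, 29.6 and 36.2% against 33.6, 26.2 and 29.6%. The limbs overlapped for both sets, with control replicate 2 on the DMM side, so the earlier difference was within the spread between libraries.

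The promoters that differed by 5 points or more were poor in CpG. Only 1 of the 46 higher and 12 of the 199 lower ones at 12 weeks had a CpG ratio of at least 0.6, against 55.0% of all promoters, and their median 5mC in control cartilage was 38.0 and 42.6%. A promoter whose 5mC is near 0 cannot fall by 5 points. Genes of blood cells, chosen here after their values were seen, stood in both sets, and they were not counted. On the higher side Itgal, the αL integrin of leukocytes, had 35% ± 3.09 in control and 47.8% ± 1.52 in DMM, Vav1, a signalling protein of blood cells, 21.3% ± 3.32 and 30.8% ± 2.30, and Gzma, a granzyme of killer lymphocytes, 64.7% ± 6.51 and 76.6% ± 4.50. On the lower side Il16, a lymphocyte cytokine, had 35.2% ± 8.66 and 20.5% ± 1.58, and Rag1, a recombinase of lymphocytes, 44.5% ± 2.74 and 31.3% ± 1.01.

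Differences at 12 weeks were also counted in the gene lists. The 8 muscle promoters measured had a median control 5mC of 35.5%, against 0.498% for all promoters. Among the 1091 promoters of 10 to 90% 5mC, 70.6% had a difference below 0 at 12 weeks, and the share without overlap in that range was not computed. Of the 8 muscle promoters 4 were lower in DMM without overlap and 0 higher, against 12.7 and 4.29% of all promoters. They were Tnni2, the fast troponin I (61.6, 63.1 and 66.1% in control against 53.9, 54.1 and 54.0% in DMM), Ckm, muscle creatine kinase (−5.99 points), Acta1, skeletal α-actin (−3.59 points), and Actn3 (−1.91 points). Muscle marker RNA at 12 weeks summed to 88.4 to 13189 CPM in control and 485 to 9707 CPM in DMM libraries of other mice, and the part of muscle tissue in these promoter values was not tested. Of the 15 chondrocyte promoters 5 were lower and 0 higher. Col11a2 had 18.4, 15.6 and 18% in control and 8.33, 13 and 11.9% in DMM, Col9a3 and Col9a2, chains of collagen IX, differed by −2.43 and −2.19 points, and Sox5 by −1.80 points. Of the 7 neuron promoters 5 were lower too, by small amounts around a median of −0.786 points. Of the 10 matrix-degrading and inflammatory genes 4 were lower, with Adamts4, an aggrecanase, falling furthest (28.7, 26.8 and 24% against 9.74, 14.7 and 18.3%). In the other lists with 7 or more measured promoters, 0 of 7 hypertrophy and ossification promoters were apart, 1 of 18 housekeeping promoters was lower and 1 higher, 3 of 22 imprinted promoters were lower and 3 higher, 4 of 18 germline promoters were lower and 1 higher, and 2 of 10 promoters of the methylation machinery were lower and 1 higher. None of the promoters of these lists named here passed by limma, and at 4 weeks 0 of the muscle and 0 of the chondrocyte promoters were apart, against 6.36% lower and 3.16% higher over all promoters.

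Some promoters differed in 5hmC. At 4 weeks 5hmC of Zfp469 was −1.08, 5.22 and 1.78% in control and 15.2, 28.5 and 17.3% in DMM, and the total from the BS libraries was 66.6% ± 4.2 and 70.6% ± 2.6. The DMM libraries were thus higher in 5hmC while the total overlapped. At 12 weeks Cd59b had −2.36, −26.6 and −4.58% in control and 14.9, 22.6 and 11.2% in DMM, with totals of 62.2% ± 5.1 and 65.9% ± 1.8. Since 5hmC is found by subtracting the oxBS percentage, a fall of 5mC and a rise of 5hmC in the same promoter share their oxidised reads and are not separate results. In Kifc3, a kinesin, the total was higher in DMM too, at 78.5% ± 1.6 against 69.8% ± 1.7. On the lower side, Cmtm1 and Cdhr5 had totals of 62.5% ± 2.9 against 79.9% ± 4.0 and 42.6% ± 3.8 against 53.4% ± 3.6 at 12 weeks, and Ccdc194 had 19.9% ± 9.5 against 36.3% ± 12.0 at 4 weeks. By limma 0 of these passed (unadjusted p between 0.0042 and 0.0874). The largest differences also included Plpp7 (11.7 points) and P2rx5, an ATP-gated channel (11.4 points), on the higher side and Gng2, a G protein subunit (−7.72 points), on the lower side at 4 weeks, and Erich3 (13.9 points) and Sbk1 (−11.5 points) at 12 weeks. The Plpp7 difference was 5.80 points as a read-weighted mean, 3.94 with a coverage minimum of 20 and 2.92 in a window of 500 bases, and that of P2rx5 was 19.9 with a coverage minimum of 20. Without control replicate 2 the Erich3 difference was 9.15 points. Without DMM replicate 1 the 12-week differences kept their direction, at 28.1 points for Cd59b, 22.2 for Kifc3, 11.6 for Erich3, −12.9 for Cmtm1, −12.7 for Cdhr5 and −13.2 for Sbk1.

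The highest 5hmC in control cartilage was at promoters of intermediate or high 5mC. Musk, the receptor kinase of the neuromuscular junction, had 19.6% ± 12.2 at 4 weeks and 17.0% ± 3.06 at 12 weeks, Hus1b 19.8% ± 4.00 and 12.4% ± 7.02, Slc25a34 19% ± 6.91 and 10% ± 4.82, and Mgp 15.8% ± 3.99 and 12.4% ± 3.59. Sox30, a transcription factor of the testis, had 16% ± 5.71 and 12.0% ± 7.69. The predicted gene Gm9997 had 15.2% ± 2.77 and 10.8% ± 4.65. Each rested on 5 to 15 cytosines, and with all libraries the level at each overlapped between the limbs.

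Promoter 5mC was next set against the RNA of the gene, which the rule for choosing cytosines did not use. A row of RNA counts was found for 12074 genes at 4 weeks and 11925 at 12 weeks. Levels are given as CPM, counts scaled to the library total adjusted by TMM factors, per kb of transcript. At 12 weeks the median level was 5.39 for the 10822 genes with under 10% promoter 5mC in control cartilage, 1.05 for the 425 genes with 10 to 30%, 0.406 for the 351 with 30 to 70% and 0.0216 for the 327 with 70% or more. The share of genes with 0 counts in all 3 control libraries rose in the same order, from 2.33% to 5.18, 12.3 and 29.7%. At 4 weeks the medians were 5.48, 1.06, 0.459 and 0.0254. The Spearman correlation across genes was −0.364 at 4 weeks and −0.384 at 12 weeks in control cartilage, and −0.356 and −0.365 in DMM cartilage. It was −0.177 and −0.200 in control once genes under 1 CPM in every library were left out. Genes are not independent replicates, and these values describe them without a test.

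**Figure D4:**
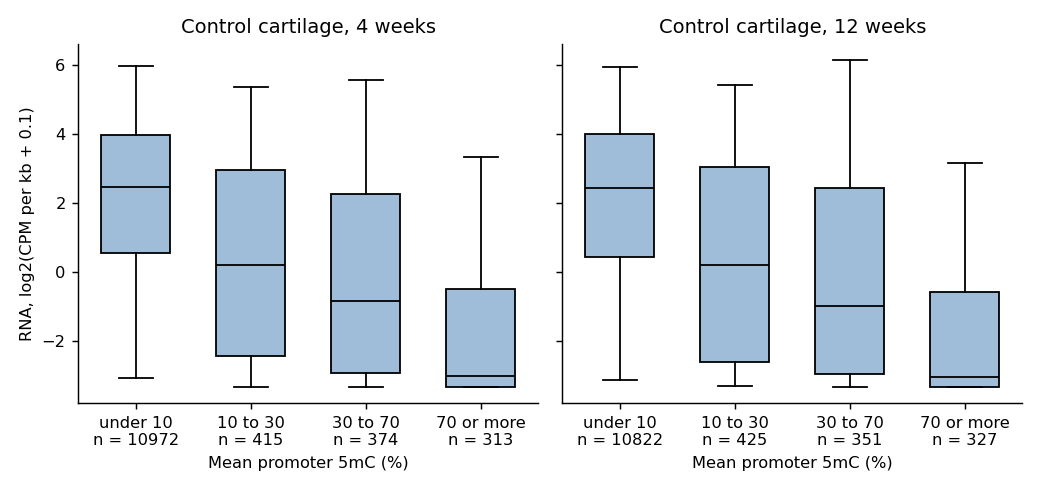
RNA level, as log2 of CPM per kb plus 0.1, of genes grouped by their mean promoter 5mC in control cartilage at 4 weeks (left) and 12 weeks (right). Boxes give the quartiles with the median as a line and whiskers reach from the 5th to the 95th percentile, and the medians fall from group to group while the boxes of neighbouring groups overlap.

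Some highly expressed genes had methylated windows. Among promoters of 70% or more, Lcn2, the neutrophil protein lipocalin 2, had the highest RNA in both weeks, at 820 and 1656 CPM per kb in control cartilage with 73.4% ± 6.40 and 74.2% ± 6.32 promoter 5mC. Cox6a2, a muscle subunit of cytochrome c oxidase, had 139 CPM per kb at 4 weeks with 72.0% ± 3.19. Mb, the gene of myoglobin, had 171 CPM per kb at 4 weeks with 89.9% ± 1.04. Nop10, a protein of small nucleolar ribonucleoproteins needed in every cell, had 74.3 CPM per kb at 12 weeks with 89.6% ± 4.26 over 7 cytosines. A window of 2 kb is sampled only where restriction fragments lie, so the measured cytosines of such a gene need not be those of its active start.

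Other genes of this group were Ecm1, an extracellular matrix protein, and Srgn, the proteoglycan serglycin, at 4 weeks, and Tmem248 and Ermap at 12 weeks. Between 30 and 70%, the leading genes included Ckm (1243 CPM per kb at 4 weeks, 53.7% ± 3.58), Tnni2, Mgp (575 CPM per kb, 49.0% ± 5.96), Gnas and the nucleoside transporter Slc29a1, with the platelet chemokine Pf4 at 12 weeks. Ckm and Tnni2 are on the list of muscle markers, whose summed RNA is given above. Under 10%, the genes with the most RNA were Chad, Cst3, Clu, Gsn and Gpx1 at 4 weeks. Chad, the cartilage matrix protein chondroadherin, had 8621 CPM per kb at 4 weeks with 9.93% ± 0.288, Cst3, the protease inhibitor cystatin C, 6399 with 0.276% ± 0.248, and Clu, the secreted chaperone clusterin, 2789 with 1.62% ± 0.409. Gsn and Gpx1, an intracellular glutathione peroxidase, followed, and Cst3 and Clu, with Ccn2, Serpine2 and Gpx3, were the leading genes at 12 weeks.

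RNA differences between the limbs were few by edgeR at an adjusted p of 0.05 without a replicate block. With a block for the replicate number edgeR called many more genes in both weeks, with the counts given at the end. At 4 weeks 2 of 10744 genes with a measured promoter were called (background 0.0757% of all transcripts, 0.0615% higher and 0.0142% lower), and at 12 weeks 1 of 10583 (background 0.00476%). At an unadjusted p under 0.05, 517 of these genes were higher and 816 lower at 4 weeks (4.81 and 7.59%) and 965 higher and 706 lower at 12 weeks (9.12 and 6.67%). Over all tested transcripts the shares were 6.11 and 7.57% at 4 weeks and 8.94 and 7.39% at 12 weeks. Lrrc15, a leucine-rich repeat membrane protein, rose at 4 weeks by 3.48 on the log2 scale (SE 0.36, edgeR adjusted p = 0.0491). Its promoter 5mC was 8.16, 4.75 and 8.22% in control and 7.28, 3.67 and 5.64% in DMM at 4 weeks, with overlap, and 8.71, 9.56 and 9.37% against 5.26, 6.95 and 7.43% at 12 weeks, without overlap (−2.66 points, limma adjusted p = 0.166). At 12 weeks its RNA differed by 3.23 on the log2 scale (edgeR adjusted p = 0.211). Kcnj15, a potassium channel, rose at 4 weeks by 2.03 (SE 0.25, edgeR adjusted p = 0.0491), and its promoter had 28.6, 24.1 and 23.8% in control against 22.3, 13 and 21.4% in DMM over 6 cytosines. The called gene at 12 weeks was Ptgs2, cyclooxygenase 2, which rose by 1.83 (SE 0.15, edgeR adjusted p = 0.0329), from a mean of 5.72 to 20.4 CPM. Its promoter was nearly unmethylated, with 1.65, 1.48 and 2.16% in control and 1.45, 1.37 and 1.19% in DMM. In these 3 genes promoter 5mC was lower in DMM wherever the limbs were apart. Over all promoters 12.7% were lower and 4.29% higher without overlap at 12 weeks, and 6.36 and 3.16% at 4 weeks. DESeq2 called 254 and 379 genes with a measured promoter, and the edgeR count at 12 weeks was 439 without control replicate 2 and 42 without DMM replicate 3, while that at 4 weeks was 43 without control replicate 3 and 1 without control replicate 1. The 3 calls were lost when other libraries were left out, since 0 genes were called at 4 weeks without control replicate 2 or any single DMM library, and 0 at 12 weeks without control replicate 1 or 3 or DMM replicate 1 or 2.

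The RNA of genes whose promoter differed by 5 points or more without overlap at 12 weeks was then examined. Of the 46 genes with higher promoter 5mC, 36 could be tested for RNA, and 31 of them had lower RNA in DMM, with a median log2 fold change of −0.42. Of the 199 genes with lower promoter 5mC, 128 could be tested, and 74 of them (57.8%) had higher RNA, with a median of 0.16. Over all 10583 genes the median was 0.03 and 54.0% were higher. At an unadjusted p under 0.05 by edgeR, 13 of the higher set had lower RNA and 0 higher, and 21 of the lower set had higher RNA and 1 lower, where 9.12% of all tested genes with a measured promoter were higher and 6.67% lower. The gap between the medians of the sets was 0.58. It ranged from 0.40 to 0.83 when the oxBS and RNA libraries of a replicate number were left out together. These libraries came from different mice and share only limb, week and number, and no BS library was used. The median of the lower set turned to −0.03 without DMM replicate 1, where 54 of 120 genes had higher RNA, and was 0.04 without control replicate 2, 0.10 without control replicate 1, 0.29 without control replicate 3 and 0.33 without DMM replicate 3. That of the higher set stayed between −0.50 and −0.32 in these recomputations, in which the sets were chosen anew.

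**Figure D5:**
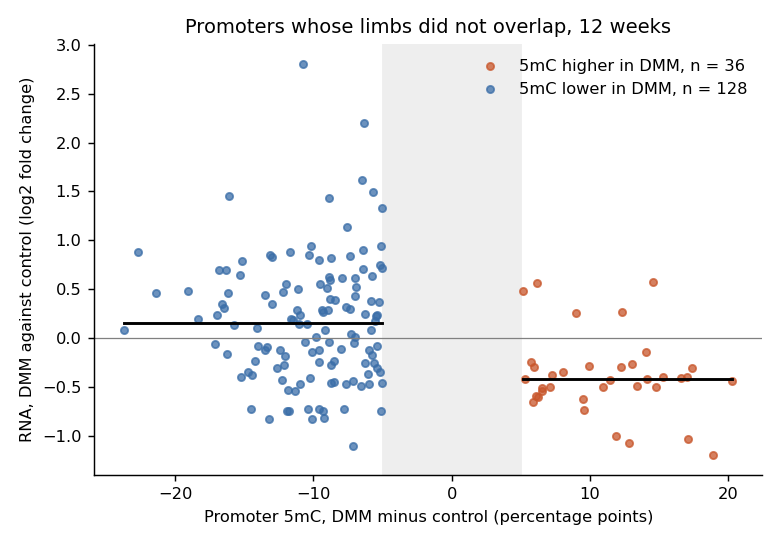
RNA difference (log2 fold change by edgeR, DMM against control) against the difference of promoter 5mC in percentage points at 12 weeks, 1 point per gene, for promoters that differed by at least 5 points without overlap, where black lines mark the median of each set and the grey band the excluded range. The 36 genes with higher 5mC have a median of −0.42 and the 128 with lower 5mC a median of 0.16. The latter was −0.03 without the oxBS and RNA libraries of DMM replicate 1.

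In the same RNA libraries 15 of 16 leukocyte and bone marrow markers were lower in DMM at 12 weeks, with a median of −0.54, summing to 17973 to 27592 CPM in control and 14299 to 21586 CPM in DMM. All 23 chondrocyte markers were higher, with a median of 0.51, summing to 20769 to 59726 CPM and 39467 to 63702 CPM, and 0 of either list were called by edgeR. All 7 erythroid markers were lower, with a median of −0.47. Of the blood cell genes of the 2 sets named above none passed the test for RNA. With higher promoter 5mC these were Itgal (RNA log2 fold change −1.07, edgeR adjusted p = 0.219), Gzma (−1.0, adjusted p = 0.219) and Vav1 (−0.62, adjusted p = 0.268), and with lower promoter 5mC Il16 (−0.35, edgeR adjusted p = 0.337) and Rag1 (−0.83, adjusted p = 0.339). The part of these marker differences in the RNA of both sets, and in their promoter 5mC, was not tested, and in bulk tissue fewer cells of a type and less RNA per cell cannot be told apart. At 4 weeks only 3 and 11 genes of the sets could be tested, with medians of 0.14 and −0.37. The 12-week sets had a median RNA difference at 4 weeks of −0.40 for the higher set (27 of 35 genes lower) and of −0.16 for the lower set (79 of 123 lower), the latter opposite in sign to 12 weeks, where the median of all genes was −0.05 at 4 weeks. For the 4-week sets the gap between them changed sign without the oxBS and RNA libraries of control replicate 2 (0.13, against −0.50 with all libraries). Muscle markers were lower in DMM at 4 weeks for all 16 genes, with a median of −2.58, and summed to 5442 to 19967 CPM in control against 551 to 3239 CPM in DMM, and their part in the 4-week values was not tested either.

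Adamts16, a metalloproteinase on the list of matrix-degrading and inflammatory genes, had 2.66% ± 0.616 in control and 2.43% ± 1.15 in DMM at 4 weeks and 1.91% ± 0.453 and 2.24% ± 0.384 at 12 weeks, with overlap in both. Mmp3, stromelysin 1, of the same list, had only 2 measured cytosines, with 46.5, 53.6 and 60.4% in control against 32.1, 43.1 and 42.2% in DMM at 12 weeks, and its limbs overlapped at 4 weeks. A further list held 22 other genes that the study names, and it leaves out Adamts16, Mmp3 and Ptgs2, which the study names too. Of its genes with 5 or more measured cytosines Tnfsf15, a cytokine of the TNF family, had the largest difference at 12 weeks, from 28.4, 23.6 and 30.2% to 12.5, 14.6 and 16% (−13 points), and its RNA was at 0.344 CPM in control. These genes were chosen by the study on these samples, so they are not independent evidence of a direction, and 3 of the list's 15 measured promoters were lower without overlap and 0 higher, against 12.7 and 4.29% of all promoters.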

How the data were processed

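Cartilage DNA and RNA were measured by reduced representation oxidative bisulfite sequencing and RNA sequencing. The authors trimmed reads, aligned them to mm10 and called methylation (Bismark is named in the submitters' processing notes, versions not given in the sources used here). The deposited methylation files give per cytosine, strands apart, the read counts (coverage of at least 10) and the percent read as C and as T. The deposited RNA files hold counts per RefSeq transcript, made by the authors with STAR and featureCounts. The transcript with the most counts stood for its gene, scaled to CPM or to CPM per kb of transcript.

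Transcription starts were the 5′ ends of gene records. Cytosines were tested on reads pooled by limb with a likelihood ratio test, which treats reads as independent, with Benjamini-Hochberg adjustment over all autosomal cytosines (SciPy 1.17.1). Promoter means were tested by limma 3.58.1 with a trended prior, RNA by edgeR 4.0.16 (quasi-likelihood, TMM, low counts filtered) and library means by exact two-sided permutation tests. Scripts were tested on simulated data. Alternatives included DESeq2 1.42.0, other windows, coverage minima and left-out libraries. With 10 reads a cytosine's percentage moves in steps of 10 points.

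The members and lists were chosen with earlier results of these data known. Genes are named by most DMCs of a direction, largest promoter differences without overlap, highest control 5hmC or highest RNA within 5mC classes. Others are named by limma or edgeR calls, list membership or the study's own mention. The remaining ones are said to be chosen after their values were seen. The p-values of limma, edgeR and the permutation tests measure the spread between libraries, and those of single cytosines only the counting error of pooled reads. For 5hmC the latter take in the error of the BS reads and leave out that of the oxBS reads.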

Additional observations from a re-analysis of the deposited data

Results flagged for a closer look

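The 5hmC difference of the Col7a1 promoter, the gene of the collagen of anchoring fibrils, took opposite directions in the 2 weeks. At 4 weeks every DMM library lay below every control library, by 8.55 points on average, and at 12 weeks every DMM library lay above, by 6.12 points. At 12 weeks the Col7a1 control libraries had 4.82, 5.10 and 5.63% and the DMM libraries 12.9, 6.00 and 15.0%, the first of them being the library whose file bears another replicate number. Without DMM replicate 2 the 4-week difference was −4.03 points. The gap between the weeks was 14.7 points. The difference between the weeks was not tested for this promoter, and its 5hmC is a subtraction in which 1 library at 4 weeks fell below 0.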

How the results depend on the processing

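Apart from left-out libraries, 73 recomputed values of the main comparisons were labelled as unchanged and 26 as moved. For counts unchanged meant within 1.5 times the reported value. For the comparisons of 5mC with RNA it meant within the spread between libraries. For differences of library means it meant only the same direction, and their size was not judged. The 77 recomputed differences of single named promoters all kept their direction. In a window of 500 bases the 4-week differences were 3.0 points for Ermap and −9.41 for Zfp469 in 5mC and 7.61 for Zfp469 in 5hmC, and the 12-week 5mC difference was −41.4 for Cep295nl. With a coverage minimum of 20 the 12-week DMC counts were 56 for 5mC and 4 for 5hmC, and the 4-week 5hmC count was 0. With a correction for overdispersion they were 0 for both marks at 12 weeks and for 5hmC at 4 weeks. That correction could hardly leave any call with 3 libraries per limb. The 5hmC test that kept negative values, and took in the counting error of the oxBS reads, called 0 in both weeks. The 12-week 5mC count was 356 with a 20-point difference, 63 in a window of 500 bases, 204 around any mRNA start and 45 without control replicate 2 and DMM replicate 1 together. Limma called 6 promoters at 12 weeks among those with at least 10 cytosines (0 higher, 6 lower) and 31 without the trended prior (6 higher, 25 lower).

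DESeq2 called 254 genes (75 higher, 179 lower) and 379 (241 higher, 138 lower) at 4 and 12 weeks, and 17 were called at 12 weeks with no filter on low counts. The correlation of promoter 5mC with RNA was −0.377 and −0.409 in a 500-base window, −0.331 and −0.353 with at least 10 cytosines and −0.177 and −0.200 without genes under 1 CPM. The cause of these shifts was not tested.

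Leaving DMM replicate 1 out of the 12-week 5hmC shares and class means was added after the data were seen. Without single libraries the DMC count ranged from 0 to 96 and from 52 to 198 for 5mC at 4 and 12 weeks, and from 7 to 42 and from 33 to 78 for 5hmC. Limma calls for 5mC at 12 weeks ranged from 0 to 1, and were 0 for the other mark and week. RNA calls ranged from 0 to 43 and from 0 to 439. The correlations ranged from −0.359 to −0.357 and from −0.381 to −0.370. The mean 5mC difference ranged from −0.192 to −0.0603 and from −0.203 to −0.142 points, and the 5hmC difference from 0.0164 to 0.0681 and from 0.0377 to 0.0793. From 4 to 12 weeks 5mC differed by −0.249 to −0.110 points in control and −0.242 to −0.177 in DMM, and 5hmC by −0.0732 to −0.0209 and −0.0503 to −0.00874. For the correlations and for the gap in RNA between promoter sets, the oxBS and RNA libraries of the same number were left out together. That gap ranged from 0.397 to 0.828 at 12 weeks. At 4 weeks it ranged from −0.737 to 0.133, and leaving out control replicate 2 turned its sign. The difference between weeks of the limb effect ranged from −0.102 to 0.0376 for 5mC and from −0.00487 to 0.0474 for 5hmC, and it changed sign for 5mC without control replicate 2 (0.0376) or DMM replicate 1 at 4 weeks (0.00569) or DMM replicate 1 at 12 weeks (0.00043), and for 5hmC without control replicate 2 at 4 weeks (−0.00487) or DMM replicate 1 at 12 weeks (−0.00445).

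Same-numbered libraries did not all deviate together in promoter 5mC (r = 0.627, 0.564 and −0.0501 at 4 weeks and −0.042, −0.125 and 0.0189 at 12 weeks), nor in RNA. At 4 weeks control 1 with DMM 2 and control 2 with DMM 1 had r of −0.538 and −0.676. Replicate numbers were not used as pairs in the main tests. The limbs came from the same mice, and an absence of pairing was not shown. With a replicate block the 5mC DMC counts were 2 and 102, the 5hmC counts 4 and 21, and RNA calls 132 (10 higher, 122 lower) and 330 (216 higher, 114 lower) at 4 and 12 weeks, limma called 0 promoters, and the library means had an exact p of 0.25, the smallest possible with 3 pairs.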
